A study of Homo sapiens with 6 samples.

Results

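The cytosolic ribosomal protein genes of 143B cells, a human osteosarcoma line, were followed after transfection of a siRNA against SIGLEC15. They were the protein-coding rows of the deposited table named RPL or RPS plus a number, with an optional A, X, L or L and digit, together with RPLP0, RPLP1, RPLP2 and RPSA. This gave 84 of 58825 genes, 52 of the large (60S) and 32 of the small (40S) ribosomal subunit. The names alone chose them, and no measured value did.

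The study compared 3 libraries labelled as SIGLEC15 knockdown (SIGLEC15 siRNA) with 3 libraries labelled as negative control (control siRNA). All cells were 143B, grown in serum-containing medium, and each received 80 nmol/L siRNA with a lipid reagent for 36 h before poly(A) RNA was sequenced. SIGLEC15 encodes a member of the Siglecs, receptors that bind sialic acid. No label tells if the libraries of 1 siRNA are separate cultures, so the p-values rest on a spread that can be technical.

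A ribosome has a small subunit that reads the mRNA and a large subunit that joins amino acids, and each is built from ribosomal RNA and many ribosomal proteins. Most of these proteins are made in equal numbers from strongly expressed housekeeping genes. Their mRNAs commonly start with a C and a run of C and T (U in the RNA), the 5′ terminal oligopyrimidine (TOP) tract, through which mTORC1 and the RNA-binding protein LARP1 control how much of them is translated. Growing tumour cells use large amounts of them. Poly(A) libraries measure the level of the mRNA, and translation was not measured here.

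The tract is the sequence feature that these genes are best known for, so the starts of genes the results turn on are printed first. Each line gives 15 bases before and 15 from a start listed by RefSeq (GRCh38.p14), 5′ to 3′ on the transcribed strand, with the tract in capitals. The tract was taken as a C at the listed start and at least 4 further bases that are C or T. Where a gene has more than 1 listed start, as RPL11 has, the start with the longest tract is printed.
RPLP0, chr12:120201097-120201126, minus strand: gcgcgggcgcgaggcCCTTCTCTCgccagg
RPS6, chr9:19380222-19380251, minus strand: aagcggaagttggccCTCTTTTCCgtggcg
RPL11, chr1:23691791-23691820, plus strand: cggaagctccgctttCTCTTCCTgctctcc
RPS3, chr11:75399503-75399532, plus strand: gcccgcgagccacttCCTTTCCTTTCagcg
RPL18, chr19:48619164-48619193, minus strand: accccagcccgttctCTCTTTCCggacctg
RPL14, chr3:40457324-40457353, plus strand: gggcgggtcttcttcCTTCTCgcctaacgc
RPL29, chr3:51995881-51995910, minus strand: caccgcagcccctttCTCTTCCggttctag
RPL41, chr12:56116618-56116647, plus strand: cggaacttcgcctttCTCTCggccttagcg
RPS15, chr19:1438381-1438410, plus strand: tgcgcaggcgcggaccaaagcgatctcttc
RPL7L1, chr6:42879601-42879630, plus strand: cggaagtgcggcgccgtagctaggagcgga

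The first 8 of these carry a tract at the start printed, and RPS15 and RPL7L1 carry none there. Of the 84 genes 67 had a start in the RefSeq table, and 47 of the 67 (70.2%) had a tract at one of their starts, against 5.14% of the 27305 genes in that table. Counted by start, 47 of the 83 listed starts of these genes (56.6%) had a tract, against 4.07% of all starts. The share of genes was alike in the subunits, 29 of 42 genes of the 60S and 18 of 25 of the 40S subunit. Tracts ran over 5 to 19 bases with a median of 8, and the longest was in RPL39. A listed start a few bases off the start used in these cells would hide a tract, so the 20 genes without one are known only by their listed starts.

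**Figure D1:**
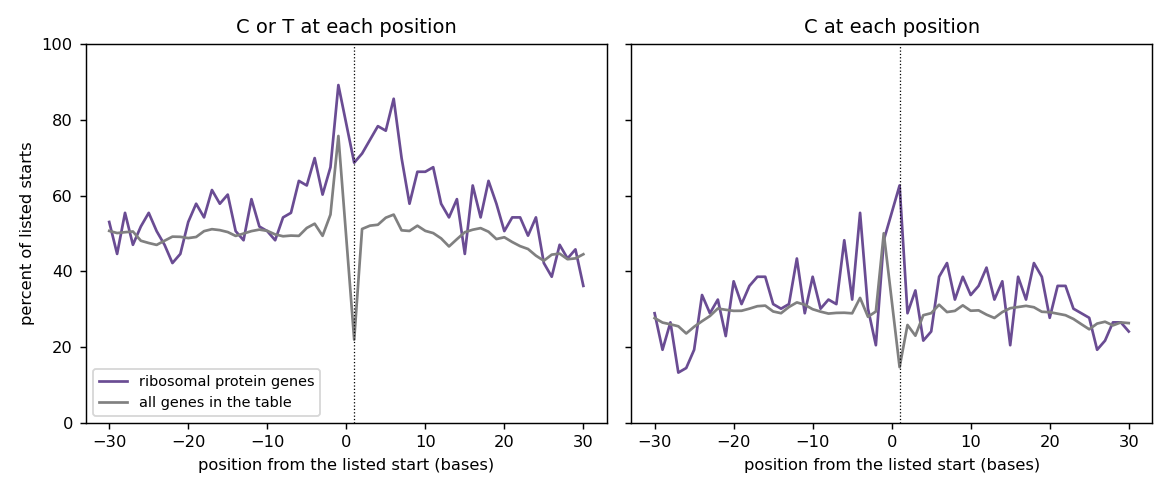
Percent of listed starts with C or T (left) and with C (right) at each base from 30 before to 30 after the start, for 83 starts of ribosomal protein genes (purple) and 35116 starts of all genes (grey). At the start itself 68.7% of the ribosomal protein starts held C or T, against 21.9% of all starts, and the raised share of C or T runs on over the next bases.

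The composition around the start was computed over all 83 listed starts of these genes. A C stood at the first base in 62.7% of them, against 14.7% of all starts. In the window of 300 bases around the start, searched on both strands with each motif scored by itself, CCGGAAG, a core letter string of ETS-family sites, was found at 28 of 83 starts (33.7%), against 10.3% of all starts. GGGCGG, the GC box, was found at 54.2%, against 45.0% of all starts. TATAAA was found at 8.43%, against 11.53%, and the E-box CACGTG at 6.02%, against 7.26%. A match describes the letters in the window and was not tested as a binding site.

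The libraries held 57966691 to 67655254 counts. Of the 84 genes 83 passed the filter on low counts and were tested, and 76 had at least 10000 counts in every library. RPL10L, a paralog of RPL10 known from testis, had 0 counts in all 6 libraries and was not tested. The median level of the tested genes was 989.8 CPM (normalised read counts, CPM, on TMM-scaled library sizes), against 11.8 CPM over all 18910 genes tested. The siRNA target was near the detection limit. SIGLEC15 had 12, 8 and 6 counts in SIGLEC15 siRNA libraries 1, 2 and 3, against 12, 10 and 22 counts in control siRNA libraries 1, 2 and 3. Its edgeR log2 fold change was -0.82 ± 0.598 (SE; adjusted p = 0.529 in edgeR), so the counts do not show the knockdown named in the labels. Of the osteoblast lineage markers 6 of 9 were tested, and edgeR called SPARC and COL1A1 higher. SPP1, ALPL and BGLAP had log2 fold changes of -0.22, -1.09 and -0.38 that did not pass edgeR. RUNX2 had the largest, 2.002 with SE 0.5705, and did not pass edgeR either (adjusted p = 0.113). Its groups do not overlap, but SIGLEC15 siRNA library 2 (3.6 CPM) and control siRNA library 2 (3.589 CPM) nearly touch. DESeq2 also called RUNX2 higher (adjusted p = 0.0219) and SPP1 lower (adjusted p = 0.0395). SPARC, at 604.0 ± 7.68 CPM with SIGLEC15 siRNA and 345.9 ± 6.34 CPM with control siRNA (SD, n = 3 each), makes up most of the summed level of this list, which was 665.4 to 689.2 CPM in SIGLEC15 siRNA libraries, against 399.1 to 412.6 CPM in control siRNA libraries. Of the leukocyte markers 3 of 4 (PTPRC, CD3E and LYZ) were at 0 in every library. CD68 alone made up their summed level, 27.9 to 47.9 CPM in SIGLEC15 siRNA libraries, against 41.9 to 56.4 CPM in control siRNA libraries. It did not pass edgeR (adjusted p = 0.416). Epithelial markers summed to 8.76 to 11.3 CPM in SIGLEC15 siRNA libraries, against 11.6 to 13.2 CPM in control siRNA libraries, and no red cell marker was tested. What part, if any, these markers have in the results below was not tested.

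The first question was how much of the mRNA pool these genes held. They took 9.21%, 8.64% and 8.24% of the counts in SIGLEC15 siRNA libraries 1, 2 and 3, against 8.34%, 8.82% and 9.51% in control siRNA libraries 1, 2 and 3. In bulk libraries such as these, fewer cells with an mRNA and less of it per cell cannot be told apart. The means were 8.69% ± 0.487 with SIGLEC15 siRNA and 8.89% ± 0.588 with control siRNA (SD, n = 3 each). The groups overlap, and the difference of -0.195 percentage points is smaller than either SD. Counting error is far smaller than this spread: the 95% Wilson interval of a library's share is at most 0.00731 points to either side, and it covers counting error only. Large subunit genes took 5.27% ± 0.299 with SIGLEC15 siRNA and 5.38% ± 0.343 with control siRNA, and small subunit genes 3.42% ± 0.189 with SIGLEC15 siRNA and 3.51% ± 0.245 with control siRNA. Control siRNA library 3 and SIGLEC15 siRNA library 1 had the highest shares. Without control siRNA library 3 the difference turned to 0.115 points, without SIGLEC15 siRNA library 3 to 0.0339 points, and without SIGLEC15 siRNA library 1 it was -0.451 points.

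Most of the genes lay on the same side of their own mean in any given library. In SIGLEC15 siRNA library 1, 73 of the 83 genes were above their own mean over the 6 libraries, with a median deviation of 0.0902 on the log2(CPM + 1) scale. In SIGLEC15 siRNA libraries 2 and 3 only 18 and 8 genes were above their mean, with median deviations of -0.0422 and -0.0743. Control siRNA library 1 had 12 genes above, with a median of -0.124. Control siRNA library 2 had 50 above, with a median of 0.0172, and control siRNA library 3 had 77 above, with a median of 0.130. The high libraries thus include both siRNAs, and so do the low ones. Over all genes tested, 49.8% to 52.2% were above their mean in each library, with medians between -0.000651 and 0.0101. The medians of the subunits lay on the same side of 0 in each library except control siRNA library 2, where 25 of 51 genes of the 60S subunit (median -0.00397) and 25 of 32 of the 40S subunit (median 0.0251) were above their mean. In control siRNA library 3, 48 of 51 genes of the 60S and 29 of 32 of the 40S subunit were above their mean.

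**Figure D2:**
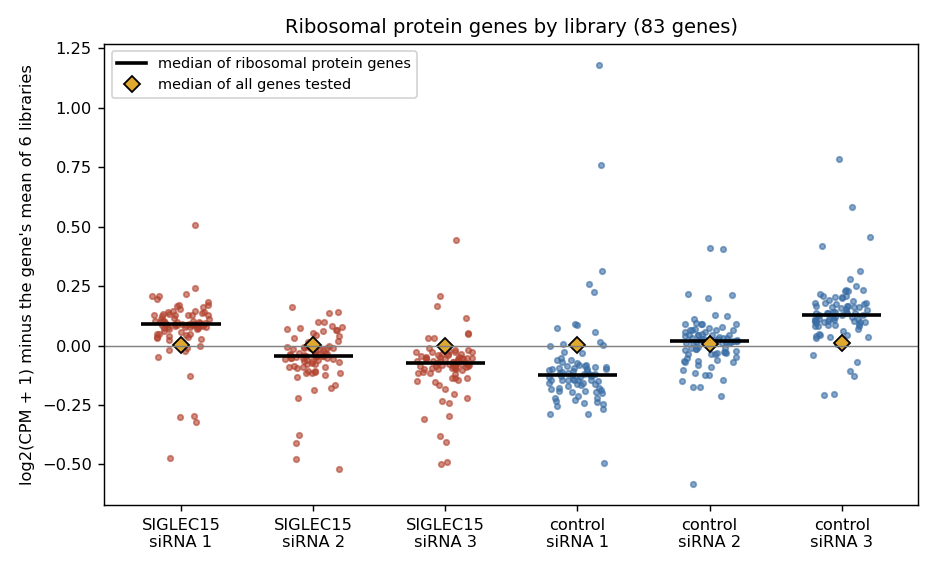
Deviation of each of 83 ribosomal protein genes from its own mean over 6 libraries, on the log2(CPM + 1) scale, for each library (points), with the median of these genes (black bar) and of all genes tested (diamond). The black bars lie above the diamonds in SIGLEC15 siRNA library 1 and in control siRNA libraries 2 and 3, and below them in SIGLEC15 siRNA libraries 2 and 3 and control siRNA library 1.

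The median spread within groups stood above that of all genes past the same floor of 100 CPM. The floor does not match the genes by level. Among genes of at least 100 CPM, the median within-group SD was 0.128 (log2) for 78 ribosomal protein genes, against 0.0951 for all 2077 genes of that level. The widest spreads were in RPL39L (0.582), RPL7L1 (0.541), RPL29 (0.520), RPL22L1 (0.392), RPS3 (0.373) and RPS19 (0.317). RPL29 and RPS19, with RPL14, RPS15 and RPS2 below, are named because of their values.

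The main comparison asked which of these genes differed between the siRNAs. None of the 83 passed edgeR's quasi-likelihood test (Benjamini-Hochberg adjusted p under 0.05 over all genes tested), where 4.65% of all genes tested did, and the smallest adjusted p was 0.142. At an unadjusted p under 0.05 there were 4 (RPS15, RPL18, RPL14 and RPS2), against 19.1% of all genes tested. DESeq2 called 3 of them, RPL18 higher and RPS15 and RPL14 lower, where it called 15.4% of all genes tested. The values of the groups did not overlap in 3 of the 83 genes (RPL18 higher, RPS15 and RPL7L1 lower), against 26.6% of all genes tested. The median log2 fold change was -0.0161, -0.0170 for the 60S and -0.0141 for the 40S subunit, against -0.00642 over all genes tested. Of the 83 genes 33 were above 0 and 50 below. Without control siRNA library 3 the median was 0.0413, and without control siRNA library 1 it was -0.0797, so its sign depends on single libraries.

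How large a difference the data leave room for can be read from the intervals. The 95% interval of the fold change lay within 1.5-fold in either direction for 76 of 83 genes (91.6%), against 41.8% of all genes tested. At a level of at least 100 CPM it did so for 74 of 78 ribosomal protein genes (94.9%), against 82.3% of all genes of that level. The remaining genes were RPS3, RPL14, RPL22L1, RPL29, RPL39L, RPL3L and RPL7L1. Of these, RPL3L had the fewest counts and the others are described below. The 47 genes with a listed TOP tract had a median log2 fold change of -0.0195, and the 19 tested genes without one had 0.0169.

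**Figure D3:**
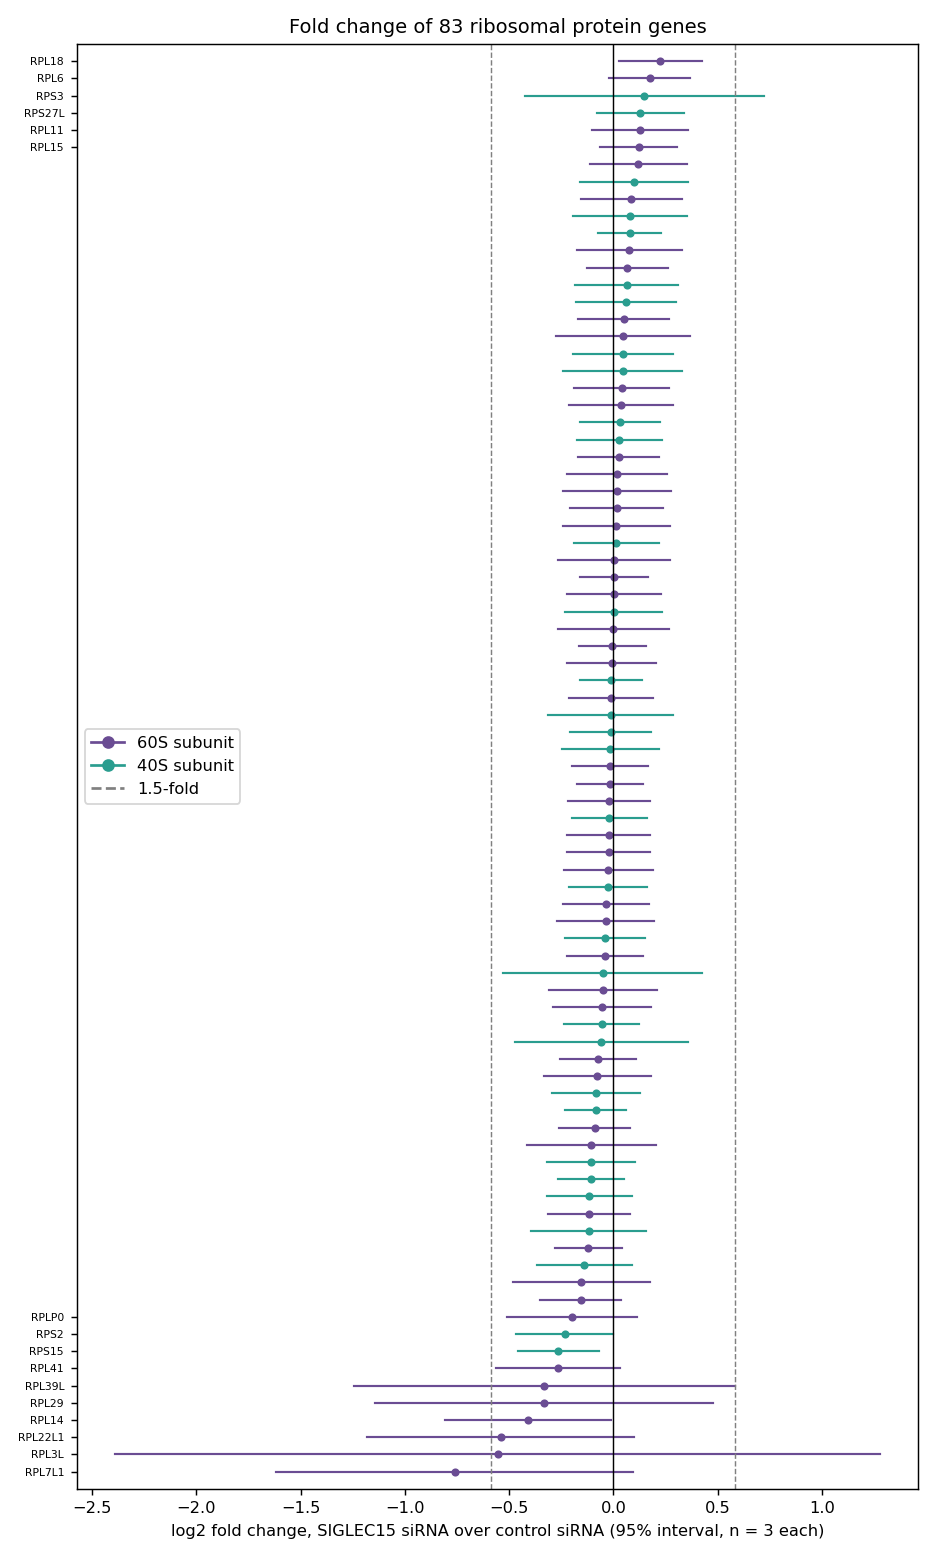
Log2 fold change, SIGLEC15 siRNA over control siRNA, of 83 ribosomal protein genes with its 95% interval from edgeR, ordered by value and coloured by subunit, with names for the 6 highest and the 10 lowest. Most intervals lie between the dashed lines at 1.5-fold, and the widest belong to RPL3L, RPL39L, RPL7L1 and RPL29.

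The highest gene by fold was RPL18 (ENSG00000063177, chromosome 19, 48615328 to 48619184 on the minus strand, as the deposited table gives it), a 60S protein. It had 675.9, 625.5 and 598.6 CPM in SIGLEC15 siRNA libraries 1, 2 and 3, against 524.5, 504.0 and 597.0 CPM in control siRNA libraries 1, 2 and 3. The groups do not overlap, but SIGLEC15 siRNA library 3 and control siRNA library 3 nearly touch. The log2 fold change was 0.23 (standard error, SE, 0.0841; edgeR adjusted p = 0.209, DESeq2 adjusted p = 0.0318). RPL6, another 60S protein, had 1173, 1049 and 1203 CPM in SIGLEC15 siRNA libraries, against 984.0, 951.0 and 1098 CPM in control siRNA libraries. These groups overlap, with a log2 fold change of 0.18 ± 0.0817 (SE; adjusted p = 0.314 in edgeR).

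RPS15 (ENSG00000115268, chromosome 19, 1438358 to 1440494 on the plus strand in the same table), a 40S protein near the decoding site, had the smallest p of all these genes. It had 241.9, 216.0 and 216.9 CPM in SIGLEC15 siRNA libraries, against 294.2, 252.3 and 263.7 CPM in control siRNA libraries. Each SIGLEC15 siRNA library was below each control siRNA library, with a log2 fold change of -0.26 ± 0.0822 (SE; adjusted p = 0.142 in edgeR, DESeq2 adjusted p = 0.0139). RPS2, a 40S protein at the mRNA channel, had 1866, 1502 and 1489 CPM in SIGLEC15 siRNA libraries, against 1865, 1862 and 1984 CPM in control siRNA libraries. SIGLEC15 siRNA library 1 lay among the control siRNA libraries (log2 fold change -0.23 with SE 0.0976, edgeR adjusted p = 0.259). Pseudogenes named after RPS2 hold 29.1% as many counts as the gene itself, so its level is uncertain.

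RPL14 (ENSG00000188846), a 60S protein, had 682.8, 881.7 and 645.4 CPM in SIGLEC15 siRNA libraries, against 1044, 1112 and 779.0 CPM in control siRNA libraries. Control siRNA library 3 lay below SIGLEC15 siRNA library 2, so the groups overlap. The log2 fold change was -0.41 ± 0.168 (SE; adjusted p = 0.251 in edgeR, DESeq2 adjusted p = 0.0407), and pseudogenes of RPL14 hold 14.1% as many counts as the gene. RPL29, also of the 60S subunit, had 547.9, 547.1 and 1034 CPM in SIGLEC15 siRNA libraries, against 1288, 697.4 and 696.6 CPM in control siRNA libraries. SIGLEC15 siRNA library 3 and control siRNA library 1 stood above the other libraries of their groups, and the log2 fold change of -0.33 ± 0.340 (SE; adjusted p = 0.671 in edgeR) became 0.0258 without control siRNA library 1 and -0.707 without SIGLEC15 siRNA library 3.

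**Figure D4:**
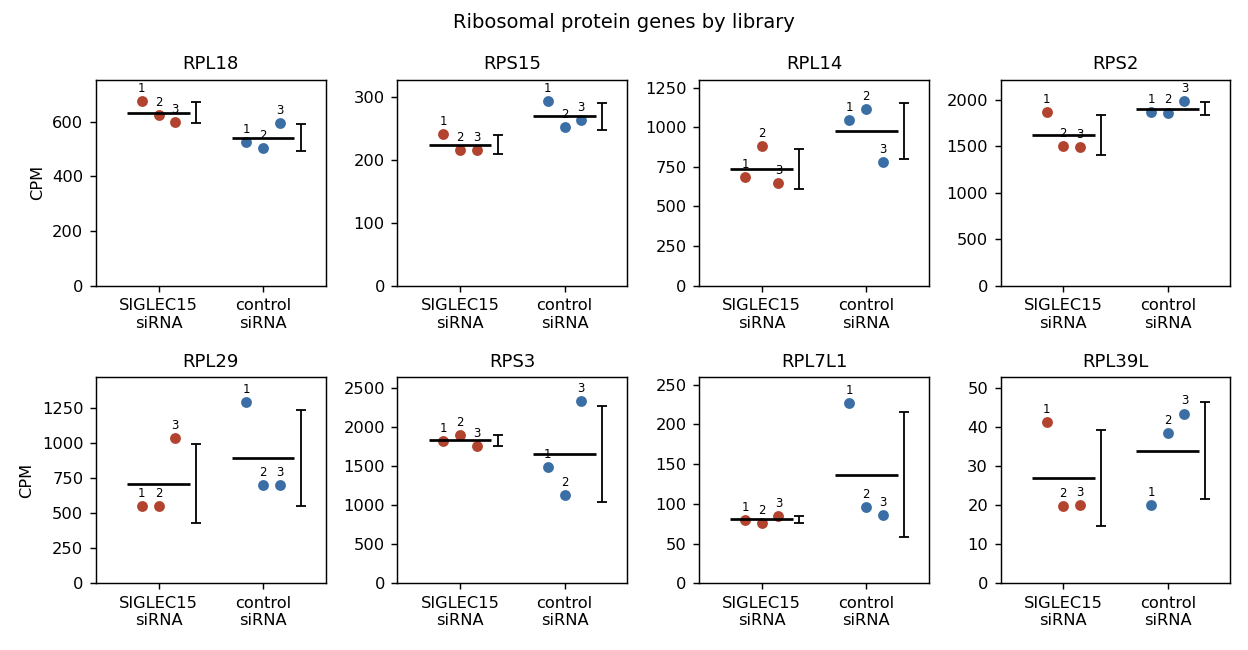
CPM of 8 ribosomal protein genes in each library (points, numbered by library), with the group mean (bar) and SD (error bar, n = 3 each). RPL18 and RPS15 show groups that do not overlap, while the wide bars of RPL29, RPS3, RPL7L1 and RPL39L come from 1 library apart or from libraries that divide within a group.

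Among the 40S proteins with known further roles, RPS3, which lies at the mRNA entry channel, was the most variable. It had 1827, 1903 and 1763 CPM in SIGLEC15 siRNA libraries, against 1490, 1134 and 2332 CPM in control siRNA libraries. The SIGLEC15 siRNA libraries lie close together and inside the range of the control siRNA libraries (log2 fold change 0.15 with SE 0.241, edgeR adjusted p = 0.808). Without control siRNA library 2 its log2 fold change was -0.0654, and without control siRNA library 3 it was 0.478.

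RPS6, the ribosomal substrate of the S6 kinases downstream of mTORC1, averaged 2266 ± 119 CPM with SIGLEC15 siRNA and 2306 ± 196 CPM with control siRNA (SD, n = 3 each; log2 fold change -0.03 with SE 0.0789, edgeR adjusted p = 0.909). RPSA, a 40S protein also known as the laminin receptor precursor, averaged 2624 ± 160 CPM with SIGLEC15 siRNA and 2783 ± 66.8 CPM with control siRNA (log2 fold change -0.08 with SE 0.0619, edgeR adjusted p = 0.530). RPS27A, made as a fusion with ubiquitin, averaged 1187 ± 42.5 CPM with SIGLEC15 siRNA and 1308 ± 164 CPM with control siRNA (log2 fold change -0.14 with SE 0.0961, edgeR adjusted p = 0.503). None of these differences passed the test, and RPS19 at the same subunit had a log2 fold change of -0.05 (edgeR adjusted p = 0.930) over a wide spread, with SIGLEC15 siRNA libraries from 536.9 to 896.1 CPM and control siRNA libraries from 673.4 to 890.0 CPM.

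The stalk of the large subunit, which recruits the GTPases of translation, is made of RPLP0, RPLP1 and RPLP2. RPLP0 had 1479, 1438 and 1172 CPM in SIGLEC15 siRNA libraries, against 1695, 1309 and 1685 CPM in control siRNA libraries. The groups overlap, with a log2 fold change of -0.20 ± 0.131 (SE; adjusted p = 0.485 in edgeR). RPLP1 and RPLP2 had log2 fold changes of -0.04 (SE 0.0978) and 0.02 (SE 0.102). All of them had intervals within 1.5-fold.

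Of the other large subunit proteins named by role, RPL5 and RPL11 form a particle with 5S rRNA and bind the p53 regulator MDM2. RPL5 averaged 1128 ± 108 CPM with SIGLEC15 siRNA and 1255 ± 218 CPM with control siRNA (log2 fold change -0.15, SE 0.139), and RPL11 averaged 1129 ± 129 CPM with SIGLEC15 siRNA and 1034 ± 65.9 CPM with control siRNA (log2 fold change 0.13, SE 0.0965). The pair thus lay on opposite sides of 0, each within its spread. RPL3, near the peptidyl transferase centre, had a log2 fold change of -0.10 (SE 0.131), and RPL10, which joins late in the maturation of the subunit, had -0.12 (SE 0.0825). None of these 4 passed the edgeR test (adjusted p between 0.520 and 0.741).

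Levels between genes were compared as CPM per kb of coding sequence (GENCODE 29 principal transcript), because the deposited FPKM values were not on 1 length scale for these genes. Over the 78 genes of at least 100 CPM the level per kb ranged from 141.8 to 17852 with a median of 2101, and the 10th to 90th percentile ran from 1040 to 3620. RPL41, the shortest with 75 coding bases, had the highest level per kb, which its short coding sequence inflates. It had 1324, 1172 and 1151 CPM in SIGLEC15 siRNA libraries, against 1200, 1538 and 1648 CPM in control siRNA libraries (log2 fold change -0.27 with SE 0.125, edgeR adjusted p = 0.318). SIGLEC15 siRNA library 1 lies above control siRNA library 1, and the groups overlap. RPS27 (5061 CPM per kb), RPS4X (3577) and RPS12 (1769) were, like RPL41, among the highest by deposited FPKM. Each had a log2 fold change of -0.11, and none passed the test.

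The paralogs were the lowest of these genes and stood well below their parent genes. RPL22L1 (86.0 CPM per kb), RPL7L1 (141.8), RPL26L1 (171.5), RPL39L (199.2) and RPS27L (200.01) were far below RPL22 (3529), RPL7 (2397), RPL26 (2275), RPL39 (3501) and RPS27 (5061). Only the coding length enters this measure, so the size of each gap depends on it. RPL3L, the striated muscle paralog of RPL3, had 3, 16 and 26 counts in SIGLEC15 siRNA libraries, against 13, 19 and 31 counts in control siRNA libraries. The starts of 3 pairs are shown because the parents share the tract while their paralogs do so in part.
RPL22L1, chr3:170870181-170870210, minus strand: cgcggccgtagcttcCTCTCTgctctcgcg
RPL22, chr1:6199581-6199610, minus strand: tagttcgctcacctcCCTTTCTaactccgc
RPL26L1, chr5:172958714-172958743, plus strand: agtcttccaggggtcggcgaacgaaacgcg
RPL26, chr17:8383179-8383208, minus strand: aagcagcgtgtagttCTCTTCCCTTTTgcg
RPS27L, chr15:63157463-63157492, minus strand: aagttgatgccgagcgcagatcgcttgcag
RPS27, chr1:153990747-153990776, plus strand: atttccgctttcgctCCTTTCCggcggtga

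RPL22L1 keeps a tract at its listed start, and RPL26L1 and RPS27L show none there. The ratio of paralog to parent was compared between the siRNAs for 5 pairs with an exact two-sided permutation test over libraries, whose p cannot go below 0.1 at 3 against 3. No pair could therefore pass, and the smallest p adjusted over the 5 pairs was 0.5.

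RPS27L, known as a p53 target, was the pair with groups apart. Its FPKM was 0.514%, 0.466% and 0.526% of that of RPS27 in SIGLEC15 siRNA libraries, against 0.457%, 0.439% and 0.391% in control siRNA libraries. Every SIGLEC15 siRNA library was above every control siRNA library, by 0.229 in mean log2 ratio (exact permutation p = 0.1, adjusted p = 0.5). The level of RPS27L itself had a log2 fold change of 0.13 ± 0.0876 (SE; adjusted p = 0.501 in edgeR). The parents RPL7, RPL22, RPL26 and RPL39 had log2 fold changes between -0.02 and -0.01, and RPS27 had -0.11. These FPKM ratios give relative differences between libraries only, since the length scale differs between the genes.

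RPL22L1, whose level RPL22 is known to restrain, had 32.04, 22.4 and 22.5 CPM in SIGLEC15 siRNA libraries, against 27.7, 31.6 and 52.6 CPM in control siRNA libraries. Control siRNA library 3 was the high one, and without it the log2 fold change of -0.54 ± 0.269 (SE; adjusted p = 0.344 in edgeR) became -0.21. The log2 ratio to RPL22 differed by -0.496 (exact permutation p = 0.2, adjusted p = 0.5).

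RPL7L1 (ENSG00000146223), a relative of RPL7, had the lowest fold change of all 83 genes. It had 79.6, 76.5 and 85.4 CPM in SIGLEC15 siRNA libraries, against 227.1, 96.2 and 86.1 CPM in control siRNA libraries. The groups do not overlap, but control siRNA library 1 was far above all the others and control siRNA library 3 was close to the SIGLEC15 siRNA libraries. The log2 fold change of -0.76 ± 0.359 (SE; adjusted p = 0.319 in edgeR) became -0.18 without control siRNA library 1. Its log2 ratio to RPL7 differed by -0.603 (exact permutation p = 0.3, adjusted p = 0.5).

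RPL39L, known from testis and from tumours, divided the libraries across the groups. It had 41.2, 19.7 and 20.1 CPM in SIGLEC15 siRNA libraries, against 20.0, 38.4 and 43.4 CPM in control siRNA libraries. SIGLEC15 siRNA library 1 and control siRNA libraries 2 and 3 were well above the others (log2 fold change -0.33 with SE 0.384, edgeR adjusted p = 0.718). Its log2 fold change was -0.776 without SIGLEC15 siRNA library 1 and -0.118 without control siRNA library 3. Those 3 libraries are also the ones in which the median of all ribosomal protein genes lay above 0, and a link between these observations was not tested. RPL26L1 averaged 73.2 ± 1.27 CPM with SIGLEC15 siRNA and 76.0 ± 9.31 CPM with control siRNA, and its log2 ratio to RPL26 differed by -0.0283 (exact permutation p = 0.6).

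Copies of these genes elsewhere in the genome limit how well they can be counted. The table holds 1144 pseudogenes named after 77 of the 84 genes, which took 0.476% to 0.563% of the counts of a library. For 14 genes the pseudogene counts came to over 10% of the gene's own, among them RPL7 (38.4%), RPL21 (32.3%) and RPS28 (30.6%), and for RPL9 they exceeded its own (102.3%). Adding them to the parent gene left the count of called genes at 0. Of 199 tested pseudogenes 3 were called by edgeR (1.51%), against 4.65% of all genes tested.

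RPL21P16 was the called pseudogene with a substantial level. It had 192.3, 203.8 and 177.7 CPM in SIGLEC15 siRNA libraries, against 272.2, 277.4 and 279.3 CPM in control siRNA libraries. All SIGLEC15 siRNA libraries were lower (log2 fold change -0.53 with SE 0.0670, edgeR adjusted p = 0.0104). Its parent RPL21 had 1314, 1140 and 1125 CPM in SIGLEC15 siRNA libraries, against 1057, 1141 and 1262 CPM in control siRNA libraries, so the parent did not pass (log2 fold change 0.05, SE 0.0921). RPL12P42 and RPL21P3 were called higher at 25 to 49 counts in each SIGLEC15 siRNA library and 0 counts in the control siRNA libraries. Whether reads of these copies come from the parent mRNAs was not tested.

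The genes also share features of position. They lie on 21 chromosomes, 12 of them on chromosome 19. In 28 of them, 59 snoRNA genes lie within the gene on the same strand, as is common for hosts of the RNAs that guide rRNA modification. An antisense gene overlaps 34 of the 84, and without a stated strand setting their reads cannot be told apart. For 6 genes, among them RPL36A and RPS10, another coding gene lies on the same strand at the same position.

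Genes that work beside the ribosomal proteins were taken as 5 lists of 92 genes, all tested, of which 1 was called by edgeR (4.65% of all genes tested were) and 23 had an unadjusted p under 0.05 (19.1% of all genes tested did). The list of ribosomal proteins outside the naming pattern includes FAU, made as a fusion with a relative of ubiquitin, RPL36AL, and RACK1, a scaffold on the 40S subunit. None of its 4 genes passed, and their median log2 fold change was 0.0744. RACK1 had 665.9, 647.6 and 580.7 CPM in SIGLEC15 siRNA libraries, against 792.8, 784.4 and 716.4 CPM in control siRNA libraries, with each SIGLEC15 siRNA library below each control siRNA library (log2 fold change -0.28 with SE 0.0750, edgeR adjusted p = 0.0985, DESeq2 adjusted p = 0.00328). FAU and RPL36AL had log2 fold changes of 0.09 and 0.05.

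Other mRNAs with a TOP tract, mainly translation factors, had a median log2 fold change of -0.0922 with 0 of 16 called by edgeR. At an unadjusted p under 0.05 there were 5, against 19.1% of all genes tested. DESeq2 called 3 lower and 0 higher, where it called 15.4% of all genes tested. These were HNRNPA1, PABPC4 and EIF3E, with log2 fold changes of -0.28, -0.20 and -0.18. The largest fold change of the list went the other way, in EIF4B (log2 fold change 0.74 with SE 0.271). It passed neither edgeR (adjusted p = 0.202) nor DESeq2 (adjusted p = 0.0914). EIF4B had 471.5, 923 and 1055 CPM in SIGLEC15 siRNA libraries, against 509.5, 473.5 and 487.6 CPM in control siRNA libraries, and the groups overlap. The summed level of the 16 mRNAs was 29720 to 31490 CPM in SIGLEC15 siRNA libraries, against 31580 to 33870 CPM in control siRNA libraries, and EEF1A1 makes up most of it. EEF1A1, the elongation factor that brings aminoacyl-tRNA, averaged 18060 ± 778 CPM with SIGLEC15 siRNA and 19520 ± 821 CPM with control siRNA (log2 fold change -0.11 with SE 0.0590, edgeR adjusted p = 0.373). EEF2, the translocation factor, had a log2 fold change of -0.05 (SE 0.0754). Ribosome biogenesis factors had 0 of 43 called by edgeR and a median of 0.0697. DESeq2 called 7 of them higher and 2 lower, where it called 15.4% of all genes tested. Those called higher were RRP12, TSR1, UTP20, UTP15, LTV1, GNL3 and PES1, with log2 fold changes of 0.33, 0.27, 0.37, 0.47, 0.29, 0.20 and 0.19. NOP16 and RIOK2, called lower, had -0.26 and -0.24. The groups overlapped in UTP15 and in none of the others, but these genes were picked by their calls, which favours groups apart. The abundant factors NCL and NPM1 had log2 fold changes of -0.01 and -0.16. The RNA polymerase I machinery, which transcribes rRNA genes, had 0 of 15 called by edgeR and a median of 0.0594. DESeq2 called 1 of them higher and 0 lower, where it called 15.4% of all genes tested. This was TAF1C, with groups that do not overlap (log2 fold change 0.53 with SE 0.194, edgeR adjusted p = 0.197, DESeq2 adjusted p = 0.0305).

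Among 14 mTOR and TOP regulators, with a median of 0.0127, RPTOR was the gene called. It encodes Raptor, the subunit that defines mTORC1. RPTOR had 40.5, 39.9 and 40.6 CPM in SIGLEC15 siRNA libraries, against 55.4, 55.1 and 51.9 CPM in control siRNA libraries. It fell with a log2 fold change of -0.42 ± 0.0682 (SE; adjusted p = 0.0218 in edgeR), and the groups do not overlap. The call was lost without any 1 of the 6 libraries, with adjusted p between 0.0581 and 0.0956 and log2 fold changes between -0.46 and -0.41. LARP1, which binds the tract, averaged 409.1 ± 18.9 CPM with SIGLEC15 siRNA and 405.0 ± 21.5 CPM with control siRNA (log2 fold change 0.01, SE 0.0661). MYC, a transcription factor of ribosome genes, had 9.28, 13.5 and 10.0 CPM in SIGLEC15 siRNA libraries, against 14.7, 15.6 and 19.4 CPM in control siRNA libraries, and did not pass the edgeR test (log2 fold change -0.60 with SE 0.184, edgeR adjusted p = 0.139, DESeq2 adjusted p = 0.00944). DESeq2 called 2 of the 14 higher, RPS6KB2 and TSC1, and 2 lower, RPTOR and MYC, where it called 15.4% of all genes tested. RPS6KB2, TSC1 and RPS6KB1 had log2 fold changes of 0.28, 0.33 and 0.39. Their DESeq2 adjusted p was 0.000772, 0.0414 and 0.0651, and none passed edgeR (adjusted p = 0.0837, 0.213 and 0.256). RACK1, LARP1, MYC, RPS6KB2, TSC1, RPS6KB1, TAF1C, the biogenesis factors and the other TOP mRNAs are named here after their values were seen. So are the pseudogenes and the genes named for their copies or overlaps.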

How the data were processed

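The deposited table gives whole-number counts and FPKM per gene and library, per the file headers. Its authors made the counts and FPKM with HISAT, StringTie and edgeR, per the submitters' processing notes, which give no versions or roles. The sources used here give no genome build, strand setting or counting step. All 84 ribosomal protein rows were found by name. Coordinates of 40 of them equal GENCODE 29.

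Counts of all genes were fitted with edgeR 4.0.16 in R 4.3.3 (filterByExpr with minimum count 10 and minimum total 15, TMM, quasi-likelihood F test, no covariate) and p-values were adjusted over all 18910 genes tested at 0.05. SE is the log2 fold change over the square root of F. The fit was tested on simulated data. The library totals of 57966691 to 67655254 counts limit precision less than the spread between libraries. Of the table's genes 29765 had no count.

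The deposited FPKM did not scale with length alone. The length implied by count over FPKM was 1.19 times the longest GENCODE 29 transcript at the median of 980 genes with 1 transcript and 1.97 times at the median of 82 ribosomal protein genes, so levels between genes are not given in FPKM. It served for the paralog ratios, the naming rule and the alternatives named below. Genes at 0 counts are listed at 0.0001 FPKM.

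Named are SIGLEC15, called members, the 5 highest and 5 lowest by FPKM, the 3 largest and 3 smallest fold changes, members listed by role, the paralogs with their parents, and up to 3 called genes of each related list. A few genes within this rule are not reported here. Other names were chosen after their values were seen, as marked. The members, lists and rules were chosen with earlier results of these data known.

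Alternatives were median-of-ratios size factors, library totals only, TMM without the ribosomal protein genes, no filter, DESeq2 1.42.0, limma-trend (limma 3.58.1) on log2(FPKM + 1) and log2(FPKM + 0.1) at a mean FPKM of at least 1, a replicate block, leaving out every library in turn, and pseudogene counts added to the parent. For the share of counts they were pseudogene counts added, summed FPKM and mitochondrial counts left out. Promoter windows are from RefSeq (GRCh38.p14).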

Additional observations from a re-analysis of the deposited data

How the results depend on the processing

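The count of 0 changed ribosomal protein genes held under each alternative run except DESeq2, which called 3. Among all genes tested, 879 were called, 2917 by DESeq2 (874 shared), 50 with the replicate block, and 260 to 431 with 1 library left out. The related lists had 1 called gene, against 2 with library totals only, 18 with DESeq2, 6 and 6 with limma-trend at either pseudocount, 0 with the replicate block and 0 to 1 with 1 library left out. The cause was not tested. With the replicate block no ribosomal protein gene was called and RPTOR had an adjusted p of 0.153. Deviations from the group means were nearly uncorrelated between libraries of the same number (r = -0.0489, 0.0111 and -0.0626 for all genes tested). Libraries of different numbers were not compared, and a batch shared by part of the genes could escape such a value. Whether the replicate number pairs the libraries is therefore not settled.

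The median log2 fold change of the ribosomal protein genes ran from -0.0797 to 0.0413 with 1 library left out, and the difference in their share of counts from -0.469 to 0.115 percentage points. The paralog ratios kept their sign with 1 library left out except RPL26L1 to RPL26 (-0.0617 to 0.0166). These 2 sets of left-out values were added after seeing the data. Of 35 named genes followed over 15 alternatives 12 changed sign in at least 1, none of them called. Depth limits what can be said of RPL3L, RPL10L and SIGLEC15. RPTOR passed in 8 of 15 alternatives.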
